A study of Mus musculus with 6 samples.

Results

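The chromatin described here is the stretch of mouse chromosome 11 on the telomeric side of Sox9, from 113040001 to 114880000 in the mm9 build, which runs to the end of the captured map. It was chosen by position, as bins that lie outside the duplicated or deleted segment of every genotype, and its members are all pairs of 10 kb bins inside it that are at least 2 bins apart. This gave 184 bins over 1840 kb and 16653 bin pairs, or 9.72% of the 171405 such pairs of the whole map, which spans 109010001 to 114880000 in 587 bins. The limits of the stretch and 2 positions proposed as insulation minima, 113690001 and 114370001, came from an earlier analysis of these same maps. Minima at those positions are therefore a description. Contacts were counted by capture Hi-C, in which pieces of DNA that are neighbours in a fixed nucleus are joined, probes pull out the joined pieces of the locus, and sequencing counts how often any 2 bins were joined.

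All 6 libraries came from E12.5 limb buds, each from a genotype of its own. WT was the control. In the published description of these mice, deltaBor lacks the boundary between the domain of the potassium channel genes Kcnj2 and Kcnj16 and the domain of Sox9, which encodes a transcription factor needed for cartilage and testis. Dup-S duplicates DNA within the Sox9 domain, Dup-L duplicates a longer stretch that spans the boundary, and Dup-C duplicates a still longer stretch that includes the Kcnj genes. Dup-LdeltaBor carries the Dup-L duplication together with the boundary deletion. All these changes lie on the centromeric side of the region described here. The number of embryos per library and the zygosity of mutants were not given in the sources used here. Limb buds hold several cell types, and a contact map averages over all of them.

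Chromatin folds into topologically associating domains, within which pieces of DNA meet each other more often than they meet DNA beyond the domain's ends. An insulation minimum is a position that few contacts cross, and in mammals such positions often carry CTCF, the protein at which loop extrusion by cohesin stalls. A focal contact is a pair of short pieces that meet far more often than their distance predicts, as is known for the paired ends of a domain. Coding genes that follow Sox9 towards the telomere in the RefSeq gene table (GRCm38) begin with Slc39a11 (a zinc transporter), Sstr2 (a somatostatin receptor) and Cog1 (a subunit of a Golgi tethering complex). Further along come Cdc42ep4 (an effector of the small GTPase Cdc42), Sdk2 (a cell adhesion protein), Rpl38 (a ribosomal protein), Ttyh2 and Kif19a (a kinesin). Coordinates of that build were not set on mm9, so which of these genes lie in which domain was not determined.

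Libraries are given below in the order WT, deltaBor, Dup-S, Dup-C, Dup-L, Dup-LdeltaBor. They held between 4144258 (Dup-C) and 8965219 (Dup-LdeltaBor) contacts in all. The region held 1095401 contacts in WT, against 870448 in deltaBor, 706501 in Dup-S, 444979 in Dup-C, 1032816 in Dup-L and 994076 in Dup-LdeltaBor. The median bin pair had 26, 21, 18, 11, 26 and 25 contacts in the same order, and 0.931% (WT) to 3.72% (Dup-C) of the bin pairs were empty. Dup-C was thus the shallowest map and carries the widest counting error. In 10 of the 184 bins, the WT contact sum was under 50% of the median bin, and 8 of these 10 form the map's end, 114800001 to 114880000. As each genotype had no replicate, genotypes could not be tested against each other, and the text gives no p-values. Intervals are 95% intervals of counting error that treat contacts as independent. Removal of PCR duplicates was not given in the sources used here, and remaining ones would narrow the intervals wrongly.

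The first question was where this chromatin is divided. The insulation score of a bin is the mean count in a square of bin pairs that joins the DNA on its 2 sides, on a log2 scale relative to all scored bins. With 500 kb on each side, the profile had a dip at 113690001 in all 6 libraries. Its score was -0.80 in WT, against -0.77 in deltaBor, -0.74 in Dup-S, -0.74 in Dup-C, -0.72 in Dup-L and -0.75 in Dup-LdeltaBor. Only in Dup-C was the first scored bin, 113540001, lower still, at -0.76. The dip stood out from its surroundings by 0.20 to 0.25, short of the prominence of 0.3 log2 required here for a minimum. With KR-balanced values, which equalise the bin sums, the prominence was 0.27 to 0.30 and 1 of 6 libraries passed. The profile was also scored over the whole map, which adds bins outside the region and leaves the counts in the square at 113690001 unchanged. With raw counts 5 of 6 libraries, all but Dup-C, then passed there with a prominence of 0.79 to 0.92. In Dup-C the minimum that passed was at 113540001 (score -1.36, prominence 0.81), and 113690001 was slightly shallower (-1.34, prominence 0.23). With KR-balanced values all 6 passed, at 0.71 to 0.80. The dip thus lay at the same bin in every library with raw counts, and within 10 kb of it with KR-balanced values. How far it stood out depended on how much DNA the profile covered.

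The other named position did not appear as a minimum at that window. It is the last bin whose 500 kb square still lies inside the map, so no bin on its telomeric side was scored. The score there was -0.35 in WT, against -0.37 in deltaBor, -0.40 in Dup-S, -0.43 in Dup-C, -0.41 in Dup-L and -0.38 in Dup-LdeltaBor, after falling over 18 bins in a row in each of them. With a 200 kb square, which reaches closer to the map's end, the score at 114370001 was only -0.08 (WT) to -0.15 (Dup-L). No minimum lay near it with that square, even at a prominence of 0.15. With the 100 kb square used below, raw counts showed a weak dip at 114340001 in all 6 libraries, with a prominence of 0.24 (Dup-S) to 0.31 (Dup-C). Only Dup-C passed there. With KR-balanced values and that square, no library had a dip of 0.15 or more at 114340001. Dup-S, Dup-L and Dup-C alone had one nearby, at 114320001, with a prominence of 0.16 to 0.20.

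With the 200 kb square, 3 minima passed in each of the 6 libraries, and a weaker one at 113930001 passed in Dup-C alone. The deepest lay at 114520001, which is 150 kb beyond the named position, and shifted by 10 kb to 114530001 in deltaBor. Its score was -1.51 in WT, against -1.54 in deltaBor, -1.51 in Dup-S, -1.55 in Dup-C, -1.51 in Dup-L and -1.55 in Dup-LdeltaBor, with a prominence of 1.28 to 1.37. The libraries spanned 0.044 log2, against a counting interval of -1.53 to -1.49 in WT alone and of -1.59 to -1.51 in Dup-C. The order of the libraries at this minimum is therefore mostly within counting error.

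The next deepest lay at 113500001, with scores of -0.95 in WT, against -1.01 in deltaBor, -1.01 in Dup-S, -1.11 in Dup-C, -1.05 in Dup-L and -1.01 in Dup-LdeltaBor. Here WT (interval -0.97 to -0.94) was the shallowest and Dup-C (-1.15 to -1.08) the deepest, and their intervals do not overlap. At 113690001 the order was turned: the score was -0.73 in WT, against -0.69 in deltaBor, -0.68 in Dup-S, -0.62 in Dup-C, -0.65 in Dup-L and -0.67 in Dup-LdeltaBor. In all 5 mutants this minimum was shallower than in WT and the one at 113500001 deeper, by at most 0.11 and 0.16. With 1 library a genotype, the spread between replicates that these steps would have to exceed is not known. KR balancing kept all 3 minima within 10 kb in each library, at -0.96 to -0.85, -0.71 to -0.66 and -1.20 to -1.13 along the region. A 100 kb square, added after the data were seen, found the same 3 to within 10 kb with raw counts in all 6 libraries. It also found the weaker minimum at 113930001 (113920001 in deltaBor), inside the middle domain defined below, in all 6, with a prominence of 0.46 to 0.61 with raw counts and 0.68 to 0.88 with KR-balanced values. With the 200 kb square the prominence of that minimum was 0.24 to 0.35, and only Dup-C passed.

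**Figure D1:**
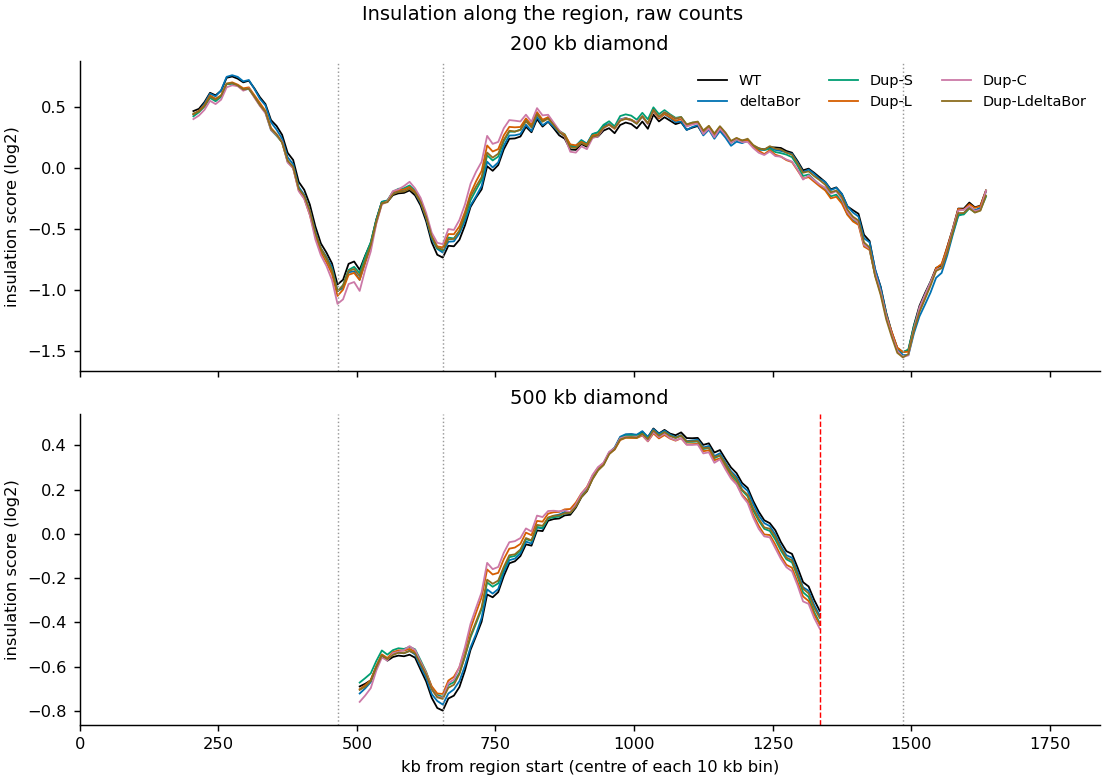
Insulation score (log2, relative to the mean of the scored bins) against the distance in kb from the start of the region, for a 200 kb square (top) and a 500 kb square (bottom), with 1 line for each of the 6 libraries. Dotted lines mark the 3 WT minima of the 200 kb square, and the dashed red line marks the other named position, where the 500 kb profile ends while still falling.

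The region was cut at the WT minima nearest to the named positions, 113690001 and 114520001. This gave a first domain of 650 kb (113040001 to 113690000), a middle domain of 820 kb (113700001 to 114520000) and a last domain of 350 kb (114530001 to 114880000) that ends with the map. Since these cuts were placed where contacts are few, the lower counts across them follow in part from the choice. The share of contacts that joined different domains was 19.5% (interval 19.4 to 19.5) in WT, against 19.5% (19.4 to 19.6) in deltaBor, 21.0% (20.9 to 21.1) in Dup-S, 19.2% (19.1 to 19.3) in Dup-C, 20.6% (20.5 to 20.6) in Dup-L and 20.5% (20.4 to 20.5) in Dup-LdeltaBor. Dup-S, Dup-L and Dup-LdeltaBor lay above WT, deltaBor was level with it and Dup-C lay slightly below, over a span of under 2 percentage points.

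Dividing each count by the mean of the region at the same distance removes the effect of domain length. With raw counts the middle domain was the most self-contained of the domains so cut, with 1.23 times the expected contacts within it in WT and 1.23 to 1.25 over the 6 libraries. The first domain had 1.14 in WT and 1.09 to 1.14 over all. Contacts across the cut at 114520001, between the middle and the last domain, were the scarcest, at 0.478 of expected in WT, against 0.476 in deltaBor, 0.487 in Dup-S, 0.460 in Dup-C, 0.474 in Dup-L and 0.481 in Dup-LdeltaBor. Across the cut at 113690001, the first and the middle domain met at 0.763 (WT) to 0.806 (Dup-L) of expected. The first and the last domain, which do not touch, met at 0.828 to 0.844, more than the neighbouring middle and last domains did relative to their distances. At the region's longest distances, however, nearly all bin pairs join the first and the last domain, so the expected count there is largely their own mean. This draws their ratio towards 1 in part by construction, and how far was not tested. With raw counts, this order of the domain pairs was the same in all 6 libraries. The last domain read 0.850 to 0.876 within itself with raw counts, but it holds the low-coverage end of the map. With those bins left out it read 1.10 to 1.16, and with KR-balanced values 1.32 to 1.38, above the 1.13 to 1.15 of the middle domain, so both its rank and whether it is enriched in contacts with itself depended on the treatment of coverage.

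**Figure D2:**
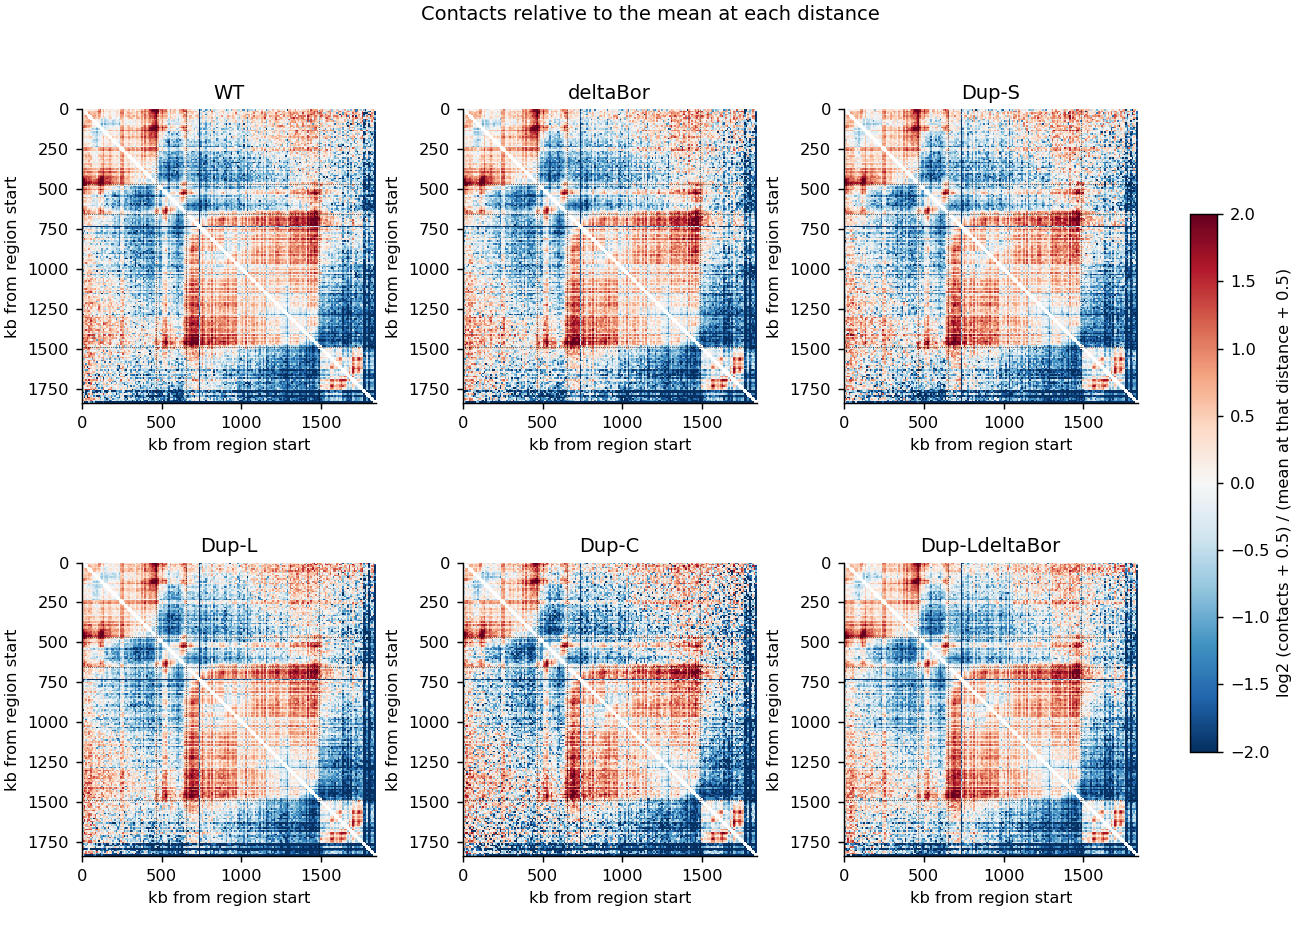
Contact maps of the region in the 6 libraries, as log2 of (contacts + 0.5) over (mean at that distance + 0.5) for each pair of 10 kb bins, with both axes in kb from the start of the region and red for more contacts than the mean. The red block of the middle domain, with its darkest corner between its 2 ends, and the blue block between the middle and the last domain (0.460 to 0.487 of expected) stand in every library.

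The minimum at 113500001 divides the first domain further. Its centromeric piece, 113040001 to 113500000 (460 kb), had 1.31 times the expected contacts within itself in WT, and 1.25 to 1.31 over the 6 libraries. In each library this was above the raw ratio of the middle domain (1.23 in WT), so the rank of the middle domain depended on the cuts. The remaining piece, 113510001 to 113690000 (180 kb), read 0.985 in WT and 0.961 to 1.01 over all. The 2 pieces met at 0.746 of expected in WT, against 0.734 in deltaBor, 0.721 in Dup-S, 0.697 in Dup-C, 0.717 in Dup-L and 0.716 in Dup-LdeltaBor, a ratio as low as that between the first and middle domains. In the centromeric piece, raw contacts with itself were highest in WT and lowest in Dup-C (1.25), but with KR-balanced values WT (1.10) was below Dup-C (1.11), so this order did not hold. This further cut was made after the data were seen. The 180 kb piece thus lay between 2 minima in every library without an excess of raw contacts within it, and read 1.15 to 1.19 with KR-balanced values.

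Focal contacts were chosen in WT alone, as the 5 bin pairs with the highest ratio of observed to expected contacts among those at least 100 kb apart with at least 20 contacts, no 2 of them close together. Their WT values are a description, and the other 5 libraries did not enter the choice. Of 15225 bin pairs at least 100 kb apart, 1057 (6.94%) reached 2 times the expected count in WT and 20 reached 5 times.

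The highest pair joined 113720001 to 113730000 with 114490001 to 114500000, 770 kb away. Each of these bins lay 30 kb from a minimum at an end of the middle domain, on the inner side. The pair had 235 contacts in WT, against 166 in deltaBor, 170 in Dup-S, 106 in Dup-C, 210 in Dup-L and 241 in Dup-LdeltaBor. That is 9.13 (interval 8.0 to 10.4), 8.35 (7.13 to 9.72), 9.57 (8.18 to 11.1), 10.8 (8.84 to 13.1), 8.62 (7.49 to 9.87) and 10.2 (8.91 to 11.5) times the expected count. It ranked 1 in each of the 6 libraries, its intervals overlapped throughout, and the surrounding 24 bin pairs averaged 3.90 to 4.31. The contact between the ends of the middle domain was therefore sharper than the enriched corner around it in every genotype.

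The telomeric bin of that pair, 114490001, met many other bins. At 100 kb or more, it reached 2 times the expected count with 59 of 165 bins in WT, against 57 in deltaBor, 49 in Dup-S, 50 in Dup-C, 46 in Dup-L and 56 in Dup-LdeltaBor. All of these partners lay on its centromeric side. Its ratios with the 29 bins of the telomeric side did not pass 0.466 in WT, and their highest value over the libraries was 0.527, in deltaBor. In the maps this shows as a stripe that starts by the minimum at 114520001 and runs back across the middle domain. It did not stop at 113690001, since bins of the first domain were among the partners. In WT these included 113550001 (3.56, 67 contacts) and 113050001 near the region's start (2.77, 20 contacts), whereas others such as 113450001 (0.561) were depleted. Another of the 5 pairs also used the bin at 114490001: 113560001 with 114490001, 930 kb apart, with 103, 88, 83, 44, 87 and 99 contacts in the order used above. It reached 5.68 times the expected count in WT and 5.31 to 6.53 over the 6 libraries, against 2.34 to 2.55 for its neighbours, although it spans the minimum at 113690001.

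The other 3 pairs lay in the first domain. The pair 113560001 with 113670001, 110 kb apart, joined bins near the 2 ends of the 180 kb piece. It had 856 contacts in WT, against 758 in deltaBor, 523 in Dup-S, 340 in Dup-C, 753 in Dup-L and 768 in Dup-LdeltaBor, or 5.44 (Dup-L) to 6.56 (deltaBor) times the expected count. The bin at 113560001 therefore took part in focal contacts with a bin near 113690001 and with a bin near 114520001. The pair 113150001 with 113480001, 330 kb apart, had 412, 290, 238, 148, 329 and 311 contacts in the same order. Its ratio was 6.62 in WT and 5.57 to 6.10 in the mutants, so the WT value that chose it was the highest of the 6. Its telomeric bin lay 20 kb from the minimum at 113500001.

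The last of the 5, 113040001 with 113500001, 460 kb apart, varied most between libraries. It had 237 contacts in WT, against 163 in deltaBor, 109 in Dup-S, 67 in Dup-C, 204 in Dup-L and 202 in Dup-LdeltaBor. Its ratio was 5.31 (interval 4.65 to 6.03) in WT, against 4.74 in deltaBor, 3.69 (3.03 to 4.45) in Dup-S, 3.87 (3.00 to 4.92) in Dup-C, 4.63 in Dup-L and 4.90 in Dup-LdeltaBor. It involves the outermost bin of the region, so part of its surroundings was not read. The 14 surrounding bin pairs that were read averaged 3.27 in Dup-S and 3.28 in Dup-C, within the pair's own intervals. In those libraries the pair was thus not clear of its surroundings. In the others the surroundings averaged 3.32 to 3.45, below the pair's intervals. The pair ranked 13 in WT, 72 in Dup-S and 75 in Dup-C. With KR-balanced values the ratios of this pair were lower, at 2.89 to 3.92, with WT again the highest and Dup-S the lowest.

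**Figure D3:**
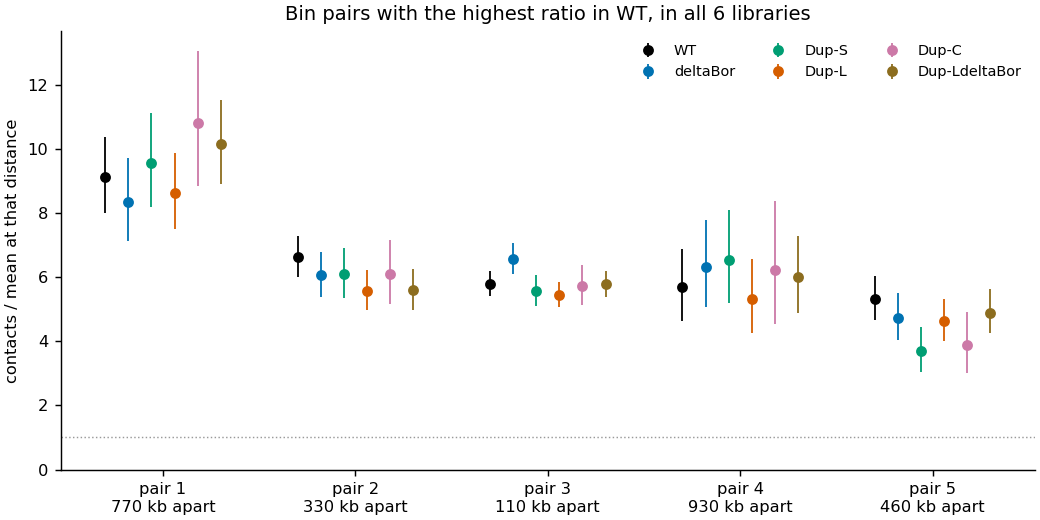
Observed contacts over the mean at the same distance for the 5 bin pairs chosen in WT, with 1 point for each library and bars for exact Poisson 95% intervals of counting error. Pair 1 (770 kb) lay between 8.35 and 10.8 in all 6 libraries, and pair 5 (460 kb) between 3.69 and 5.31.

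Contacts fell with distance at similar rates. In WT the mean bin pair held 619 contacts at 20 kb, 156 at 100 kb and 14.8 at 1000 kb. The slope of log2 contacts on log2 distance from 20 to 1000 kb was -0.93 in WT, against -0.93 in deltaBor, -0.89 in Dup-S, -0.95 in Dup-C, -0.91 in Dup-L and -0.90 in Dup-LdeltaBor. Dup-S had the shallowest decay and Dup-C the steepest, and this held with KR-balanced values (-0.87 and -0.94) and without the low-coverage bins (-0.88 and -0.94). From 100 to 1000 kb the slopes were steeper, from -1.04 in Dup-C to -0.95 in Dup-S. Beyond 1000 kb the same order appeared as a gain or loss over WT, with all contacts of the region as the scale. The fold was 0.998 (interval 0.983 to 1.01) in deltaBor, 1.13 (1.12 to 1.15) in Dup-S, 0.933 (0.914 to 0.951) in Dup-C, 1.05 (1.04 to 1.07) in Dup-L and 1.07 (1.05 to 1.08) in Dup-LdeltaBor. At 20 to 90 kb the folds were 1.02, 0.971, 1.03, 0.979 and 0.982 in the same order, so the libraries with more long-range contacts had fewer short-range ones. Since the folds share 1 scale, a gain at one distance goes with a loss at another. These bands were added after the data were seen.

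**Figure D4:**
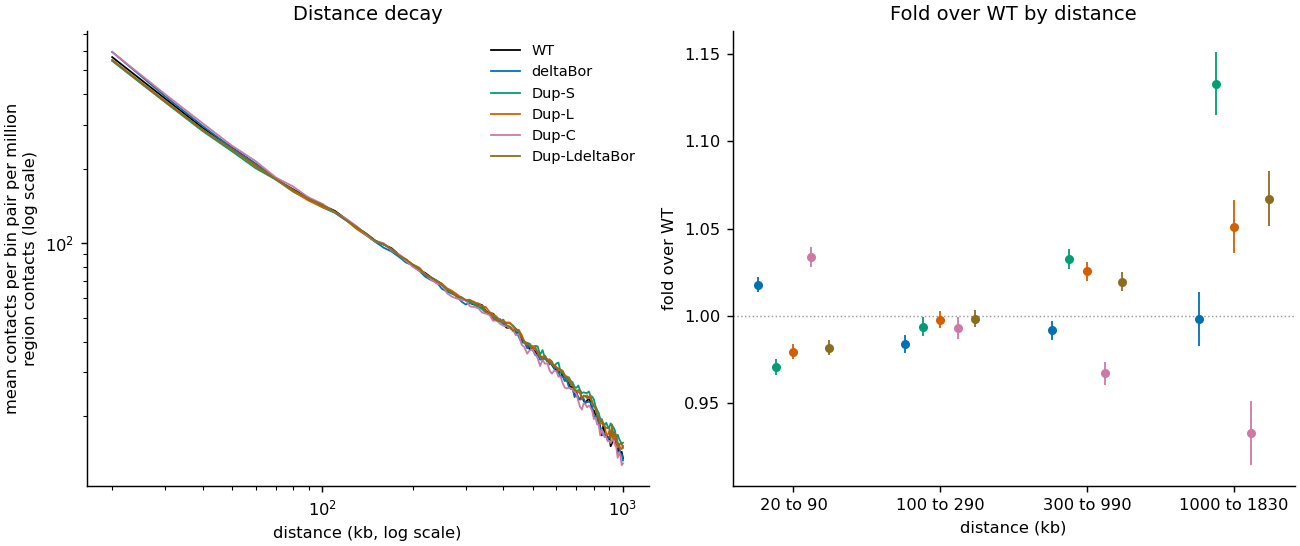
Left, mean contacts per bin pair scaled to the contacts of the region (y axis) against distance (both axes logarithmic) in the 6 libraries. Right, the fold over WT in 4 bands of distance, with 95% counting intervals, where at 1000 to 1830 kb Dup-S is highest at 1.13 and Dup-C lowest at 0.933.

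Agreement between libraries was read from all 16653 bin pairs, as the correlation of log2 contacts over expected. Pearson's r over the 15 pairs of libraries ran from 0.796 to 0.874 with a median of 0.852, and Spearman's rho from 0.798 to 0.870. WT correlated with deltaBor at 0.870, with Dup-S at 0.852, with Dup-L at 0.857, with Dup-C at 0.803 and with Dup-LdeltaBor at 0.874. The 5 lowest values were those with Dup-C, the shallowest library, none of which passed 0.823, and without Dup-C the lowest was 0.845. Over 630 blocks of 50 kb, r was 0.971 to 0.990. With bin pairs of at least 20 expected contacts it was 0.911 to 0.935. That threshold left 6642 bin pairs in each comparison with Dup-C and 9631 to 11603 in the others. Those values therefore rest on unlike sets and do not show whether Dup-C stands apart. KR-balanced values lowered r to 0.520 to 0.658, and to 0.662 to 0.804 when the low-coverage bins were also left out. The points share probes, mappability and neighbouring bins, so these values describe likeness between maps and carry no p-value.

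The 5 mutants were then set against WT, and Dup-LdeltaBor against Dup-L as well, after scaling on all contacts of the region. The 5 comparisons with WT share that library. Contacts between domains were 1.00 times WT (interval 0.994 to 1.01) in deltaBor, 1.08 (1.07 to 1.09) in Dup-S, 0.985 (0.977 to 0.993) in Dup-C, 1.06 (1.05 to 1.06) in Dup-L and 1.05 (1.05 to 1.06) in Dup-LdeltaBor. Against Dup-L, Dup-LdeltaBor had 0.996 (0.989 to 1.00). In both comparisons that differ by the boundary deletion, this summed fold thus lay within counting error of 1 on this scale. In Dup-LdeltaBor over Dup-L, however, its parts lay on both sides of 1. The first with the middle domain read 0.983 (0.975 to 0.990), and the first with the last 1.04 (1.02 to 1.06). Scaled on the contacts of the map's first 1500 kb instead, the fold of deltaBor over WT was 0.975 (0.968 to 0.981). When each distance was given equal weight, the folds over WT were 1.02 in Dup-S, 1.01 in Dup-C, 1.02 in Dup-L and 1.01 in Dup-LdeltaBor. The excesses of Dup-S, Dup-L and Dup-LdeltaBor were thus smaller once distance was taken into account, and Dup-C moved from below WT to above it.

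The 36 folds over single domains and domain pairs ran from 0.936 (interval 0.910 to 0.963, Dup-C, first with last) to 1.14 (1.12 to 1.17, Dup-S, first with last). Both extremes concern the most distant pair of domains, where WT had 17557 contacts, Dup-S 12934 and Dup-C 6674. Contacts between the first and the middle domain over WT were 1.01 for deltaBor, 1.09 in Dup-S, 1.01 in Dup-C, 1.08 in Dup-L and 1.06 in Dup-LdeltaBor. Within the first domain all 5 mutants were below WT, at 0.992, 0.962, 0.970, 0.966 and 0.965 in the same order. That direction depended on the processing. With KR-balanced values deltaBor (1.01), Dup-C (1.01) and Dup-LdeltaBor (1.00) lay at or slightly above WT, and scaling on centromeric contacts put Dup-C (1.01) and Dup-LdeltaBor (1.02) above it. Dup-S and Dup-L stayed below WT in both.

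The region held a smaller share of the contacts in every mutant library. It held 22.1% of the contacts at least 2 bins apart in WT, against 21.2% in deltaBor, 19.4% in Dup-S, 16.0% in Dup-C, 17.3% in Dup-L and 14.8% in Dup-LdeltaBor. The first 1500 kb of the map, on the centromeric side of every altered segment, moved with it, from 15.2% in WT to 9.63% in Dup-LdeltaBor. Relative to those centromeric contacts, the region over WT was 0.974 for deltaBor, 0.961 in Dup-S, 1.05 in Dup-C, 1.02 in Dup-L and 1.06 in Dup-LdeltaBor. On the library total it was at 0.955, 0.875, 0.720, 0.780 and 0.669 of WT. Folds scaled on the library total are therefore lower throughout, by 0.07 to 0.58 on the log2 scale.

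At a finer grain, all 171 blocks of 100 kb by 100 kb had at least 50 contacts in both libraries of each comparison, and 0 of 171 were 1.5-fold or more higher or lower in any of them. Only whole blocks were used, from 113040001 to 114840000. The low-coverage bins beyond 114840000, up to the map's end at 114880000, were therefore in no block. Over the whole map, which includes the altered segments, 5.67% of blocks were that much higher and 1.34% lower in deltaBor, 7.19% and 0% in Dup-S, 14.9% and 13.7% in Dup-C, 14.9% and 4.68% in Dup-L and 30.2% and 15.6% in Dup-LdeltaBor. In Dup-LdeltaBor over Dup-L the shares were 5.73% and 2.05%. Since the region was chosen to lie outside the altered segments, nothing is read from that difference. The block folds ran from 0.904 to 1.10 in deltaBor, 0.861 to 1.23 in Dup-S, 0.712 to 1.32 in Dup-C, 0.817 to 1.22 in Dup-L and 0.913 to 1.18 in Dup-LdeltaBor. The range was narrowest in deltaBor and widest in Dup-C, the shallowest library.

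The extreme blocks fell into a few places. The 3 largest gains of Dup-S, at 1.21 to 1.23, joined 113240001 to 113440000 with 114440001 to 114640000, at 1100 to 1300 kb. The 3 largest gains of Dup-L (1.17 to 1.22) and of Dup-LdeltaBor over WT (1.17 to 1.18) also started from 113240001 to 113440000. They reached blocks 600 to 1300 kb away. All of these comparisons use the same WT library, so a low WT count in those blocks would raise each fold. In deltaBor the highest block, 113340001 to 113440000 with 114440001 to 114540000, had 1067 contacts against 1219 in WT, a fold of 1.10 (interval 1.01 to 1.20). Its lowest, 113140001 to 113240000 with 114240001 to 114340000, had 1127 against 1569, a fold of 0.904 (0.837 to 0.976).

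In Dup-C, the block of 113740001 to 113840000 with itself was the highest, with 7459 contacts against 13929 in WT and a fold of 1.32 (1.28 to 1.36). The same block was the third highest in deltaBor, at 1.09. The 3 lowest blocks of Dup-C all had 114740001 to 114840000 as a partner, with folds of 0.712 (0.630 to 0.804), 0.747 (0.662 to 0.841) and 0.779 (0.644 to 0.938). The 3 highest of Dup-LdeltaBor over Dup-L had that partner too, at 1.15 to 1.25, and the lowest of Dup-L over WT as well, at 0.817 (0.713 to 0.936). Part of that stretch, from 114800001 on, belongs to the low-coverage end of the map.

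Single bins were compared next. The contact sum of a bin over its WT sum, with the median bin set to 1, lay within 1.1-fold in 180 of 184 bins in deltaBor, 173 in Dup-S, 157 in Dup-C, 169 in Dup-L and 178 in Dup-LdeltaBor. The bin 114830001 to 114840000 departed furthest downwards. It held 1867 contacts in WT, against 1247 in deltaBor, 855 in Dup-S, 158 in Dup-C, 354 in Dup-L and 986 in Dup-LdeltaBor, and its ratios to WT were 0.840, 0.708, 0.207, 0.199 and 0.582. Dup-L and Dup-C were far below the rest there, and Dup-LdeltaBor, which carries the same duplication as Dup-L, was not. The next bin, 114840001, had ratios of 0.873, 0.797, 0.560, 0.639 and 0.845, again lowest in Dup-C and Dup-L. Both bins have low coverage already in WT, where they reached 15.6% and 27.1% of the median bin. The part that coverage has in these differences was not tested. In the last bin, 114870001, Dup-S read 2.00 times WT, on 206 contacts against 159.

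**Figure D5:**
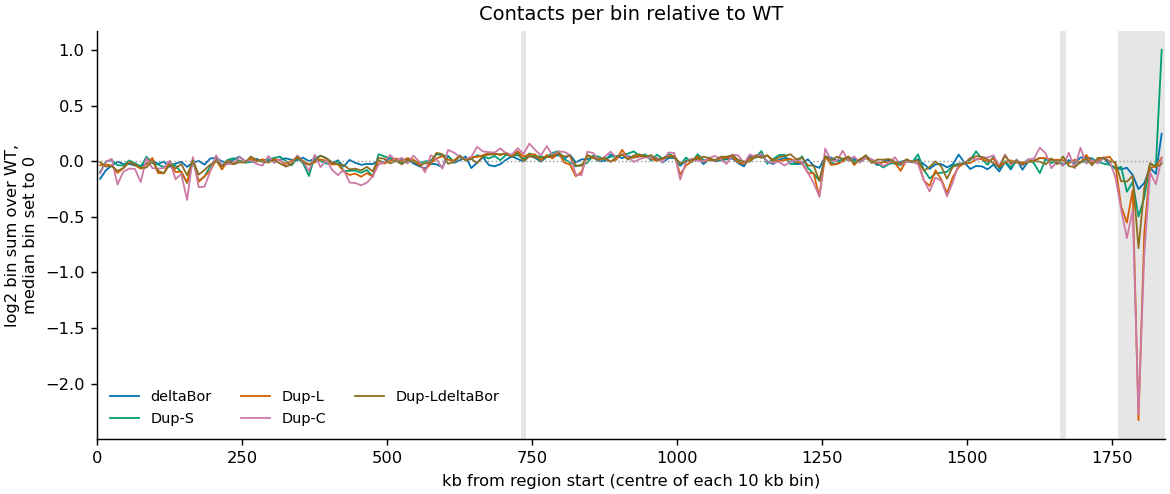
Log2 contact sum per 10 kb bin over that of WT, with the median bin set to 0, against the distance in kb from the start of the region, with 1 line for each of the 5 mutant libraries and grey bands on the 10 low-coverage bins. Most bins lie close to 0, and Dup-L and Dup-C drop to -2.33 and -2.27 at 114830001 near the map's end.

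The gain of the block at 113740001 sat around the low-coverage bin 113770001 to 113780000, which had 3396 contacts in WT, or 28.4% of the median bin. The bin's own sum did not stand out, at 0.998 to 1.05 of WT. What differed was how often DNA on its 2 sides met. Over 10 bin pairs that span this bin within 50 kb, WT had 4449 contacts, deltaBor 3905, Dup-S 3358, Dup-C 2708, Dup-L 5629 and Dup-LdeltaBor 4625. Relative to 12 bin pairs with both bins on the same side of it, these were 1.10 times WT (interval 1.05 to 1.14) in deltaBor, 1.19 (1.14 to 1.24) in Dup-S, 1.31 (1.25 to 1.38) in Dup-C, 1.34 (1.29 to 1.40) in Dup-L and 1.12 (1.07 to 1.16) in Dup-LdeltaBor. Among the 174 bins so scored, this was the highest value in Dup-S, Dup-C and Dup-L and the next to highest in deltaBor and Dup-LdeltaBor. Bins more than 30 kb away reached at most 1.10, 1.10, 1.08, 1.11 and 1.10 in the 5 mutants. Downwards they went further, to 0.833, 0.783, 0.521, 0.518 and 0.844, at 114820001 in the first 4 of these and at 114790001 in Dup-LdeltaBor, by the map's end. Against Dup-L, Dup-LdeltaBor read 0.831 (0.799 to 0.864) at 113770001, the lowest of the 174, while the highest was 1.71 at 114820001. The largest departures of this measure in Dup-L and Dup-C were therefore at the low-coverage end and not at 113770001. KR-balanced values gave 1.09, 1.20, 1.30, 1.33 and 1.10 over WT and 0.827 over Dup-L. With them the bin ranked 2, 1, 2, 1 and 4 from the top in the same order, and 171 of 174 over Dup-L. It was thus no longer the highest in Dup-C or the lowest over Dup-L. The position was picked after its values were seen, all 5 ratios share the WT library, and no replicate shows how much it varies within a genotype. At this position, Dup-L and Dup-C were again alike and Dup-LdeltaBor lay closer to WT, as in the bin near the map's end.

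The authors' deposited comparison maps were read over the same 16653 bin pairs. In the authors' deposited log2 ratio of WT over deltaBor, the median of the region was 0.15, and 66.4% of bin pairs lay above 0, against 52.1% over the whole map. In their deposited log2 ratio of Dup-LdeltaBor over Dup-L, the median was -0.12 and 35.7% lay above 0, against 43.7%. Both deposited ratios thus had the region lower with the boundary deletion. The authors' deposited difference maps had 31.2% of bin pairs above 0 for deltaBor minus WT, against 45.5% over the whole map. Labels of the difference maps call the deletion d1-3, which was read here as deltaBor. In all the deposited comparison maps, the direction was taken from the order of the names. The shares were 39.9% against 51.6% for Dup-S minus WT and 48.2% against 60.3% for Dup-L minus WT. They were 34.8% against 48.5% for Dup-C minus WT and 53.2% against 57.0% for Dup-LdeltaBor minus Dup-L. For Dup-LdeltaBor over Dup-L, the deposited ratio and the deposited difference thus lay on opposite sides of 0 over this region. In both, however, the region's share above 0 was below that of the whole map. How these deposited maps were scaled was not given in the sources used here, so a lean over the whole region and its scale cannot be told apart.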

How the data were processed

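Capture Hi-C maps of 6 genotypes, 1 library each, were used. Per the submitters' processing notes, alignment used Bowtie2 (2.2.6) and the mm9 build. The deposited files give, per pair of 10 kb bins, raw contact counts, and a signal after KR (Knight-Ruiz) balancing by the authors. The authors also deposited 2 maps of log2 ratios and 5 maps of differences (other units) between libraries. How read pairs were filtered and deposited comparison maps scaled was not given in the sources used here. Positions in the Dup-C and Dup-S raw maps, deposited as offsets, were set on 109010001.

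Raw counts were the main values (Python 3.11.15, numpy 2.4.6, scipy 1.17.1), tested on simulated data. Expected counts are means by distance in the same library and region. Shares and folds carry exact binomial (Clopper-Pearson) 95% intervals and ratios to expected counts exact Poisson ones, for counting error only. Correlations use a pseudocount of 0.5. The domain cuts were to come from the 500 kb square, which found no minimum at a prominence of 0.3, so the WT minima of the 200 kb square were used. Named regions are the domains, the minima, the 3 blocks with the largest gain and loss per comparison, and the 5 bin pairs with the highest WT ratio. Alternatives were KR values, other scalings, distances, windows and block sizes, and leaving out low-coverage bins. The members, lists and tests were chosen with earlier results of these data known. Samples other than these 6 libraries were not analysed here.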

Additional observations from a re-analysis of the deposited data

Results flagged for a closer look

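The boundary deletion was compared in 2 backgrounds. Contacts between the middle and the last domain were 0.986 (interval 0.974 to 0.998) in deltaBor over WT and 1.01 (1.00 to 1.02) in Dup-LdeltaBor over Dup-L. They stand out because the 2 ratios lie on opposite sides of 1, each with a counting interval that does not include 1. The difference between them was not tested, since each genotype has 1 library. With low-coverage bins left out the ratios were 0.994 and 1.00, and both intervals then included 1.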

How the results depend on the processing

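A minimum near 113690001 passed in 0 of 6 libraries at the reported setting, and in 6 with a 200 kb or 100 kb square or a prominence of 0.15, 5 with the whole map and 1 with KR values. Near 114370001 it passed in 0, except 1 with the 100 kb square. The WT share between domains was 20.6% with KR values, 31.1% at 10 or more bins apart, 19.1% without low-coverage bins, 19.0% without the last 10 bins and 23.8% with 4 stretches. The WT slope from 100 kb was -1.01. The lowest and highest r were 0.520 and 0.658 with KR values, 0.971 and 0.990 in 50 kb blocks, and 0.925 and 0.956 without division by expected. The lowest was 0.662 with KR values without low-coverage bins and 0.911 at 20 expected counts. Scaled to the library total, folds between domains over WT were 0.956 (deltaBor), 0.944 (Dup-S), 0.710 (Dup-C), 0.824 (Dup-L) and 0.704 (Dup-LdeltaBor), and 0.854 over Dup-L. There, middle with last in Dup-LdeltaBor over Dup-L was 0.868, the highest of 36 domain folds was 0.999, and 1 (Dup-L), 46 (Dup-C) and 54 (Dup-LdeltaBor) blocks passed 1.5-fold, all lower. On centromeric contacts the folds were 0.975, 1.04, 1.03, 1.08 and 1.11 in the same order, and 1.03 over Dup-L. With equal weight for each distance they were 1.02 (Dup-S), 1.01 (Dup-C), 1.02 (Dup-L) and 1.01 (Dup-LdeltaBor). At 10 or more bins apart they were 1.01, 1.06, 1.01, 1.04 and 1.04. With KR values Dup-C was 0.977. The fold of Dup-C thus crossed 1 with 3 settings, and the gains of Dup-S, Dup-L and Dup-LdeltaBor turned to losses on the library total. The cause was not tested beyond the distances given above. No paired analysis was possible because each genotype has 1 library.

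Depth limits the finer values. In Dup-C the median bin pair held 11 contacts, and the intervals of its focal contacts are the widest. The map ends inside the last domain, so its telomeric end was not measured.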
